A study of Homo sapiens with 6 samples.

Results

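The genes described here are 4 transglutaminase genes (TGM1, TGM2, TGM3 and TGM5) and 4 peptidylarginine deiminase genes (PADI1, PADI2, PADI3 and PADI4), 8 of the 21462 genes with read counts. They were chosen as a group because TGM2 and PADI3 were much higher in Dsg2KO than in A431CT cells in these same libraries, so their difference between the conditions is described and not tested. The series holds RNA-seq of 3 A431CT and 3 Dsg2KO libraries, made from polyA RNA. The A431 line consists of human keratinocytes from an epidermoid carcinoma. The A431CT cells are the control A431 cells, labelled wild type, and came from the same source as the knockout line. Whether they also passed through the editing procedure is not clear from the sources used here. The Dsg2KO cells are an A431 line in which DSG2, the gene of the desmosomal cadherin Desmoglein-2, was disrupted by CRISPR/Cas9. All 3 Dsg2KO libraries come from this edited line, so a difference from A431CT cells may belong to the line as well as to the loss of DSG2, and these cannot be told apart. Whether the line is 1 clone is not given in the sources used here.

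Transglutaminases join glutamine and lysine side chains of proteins into bonds that proteases cannot cut. TGM1, TGM3 and TGM5 are the enzymes of stratified epithelia and hair that knit precursor proteins into the cornified envelope, the tough shell of the outermost keratinocytes, while TGM2 is the widely expressed tissue transglutaminase, which also sits at the cell surface and binds fibronectin and integrins. Peptidylarginine deiminases turn arginine into citrulline, which removes a positive charge from the protein. PADI1 and PADI3 act in epidermis and hair follicle, where filaggrin, trichohyalin and keratins are citrullinated, PADI2 is widely expressed, and PADI4 is best known from granulocytes.

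The libraries held between 12845719 and 13650746 counts in A431CT cells and between 14786041 and 16255692 counts in Dsg2KO cells, where 3 counts, taken as the floor, are worth 0.184 to 0.236 CPM (counts scaled to library size with edgeR's TMM factors, the unit used throughout). Counts of DSG2 fell from 323 ± 6.08 to 51.9 ± 2.88 CPM (SD, n = 3 each, log2 fold change -2.64, SE 0.05, adjusted p = 1.29e-14 with edgeR's quasi-likelihood test), in the direction of the labels. The line carried most of the markers of its type: 7 of 8 basal keratinocyte and carcinoma genes were tested, and only KRT14 was at 3 counts or fewer in every library. The summed level of the 8 lay between 9596 and 10286 CPM in A431CT and between 10390 and 10805 CPM in Dsg2KO cells. EGFR made up most of this sum, at 8451 CPM on average in A431CT and 9134 CPM in Dsg2KO cells, while KRT17 and KRT6A were low, at 12.9 and 8.44 CPM in A431CT cells. Of these markers KRT6A was called lower (log2 fold change -1.03). All 5 fibroblast markers were at 3 counts or fewer. The summed myeloid markers lay between 241 and 245 CPM in A431CT and between 154 and 167 CPM in Dsg2KO cells. Of these, 3 of 8 were at 3 counts or fewer, MPO and ELANE among them. CD68 made up most of the sum and was called lower (log2 fold change -0.62). The 5 summed endothelial markers lay between 8.53 and 11.3 CPM in A431CT and between 15.2 and 15.7 CPM in Dsg2KO cells, with PECAM1 and CDH5 called higher and KDR and TIE1 at 3 counts or fewer. Over all tested genes 2.99% were called higher and 3.03% lower, and nothing is read from the calls of these few markers. The part of such cells in the results was not tested.

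TGM2 and PADI3 carried nearly all reads of their families in both conditions, and both were far higher in Dsg2KO cells. PADI1 was also higher, from a low level, whereas the low levels of TGM1 overlapped between the conditions and TGM3 had no read in any library. In RNA from whole cultures, more cells that express a gene and more of its RNA per cell cannot be told apart. The remaining genes, TGM5, PADI2 and PADI4, had at most 12 counts in any library. Of the 8 genes, 4 passed the low-count filter (TGM1, TGM2, PADI1 and PADI3), and 3 of these were at or past 0.5 in log2 fold change, all upward, beside 9.18% in either direction among all 12857 genes that passed. PADI1 passed only through its Dsg2KO libraries. With the study's thresholds of 0.05 for the adjusted p-value and 0.5 for the size of the log2 fold change, 6.03% of all tested genes were called by edgeR, 2.99% higher and 3.03% lower. Nothing is read from these shares for genes that were chosen from the same contrast.

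**Figure D1:**
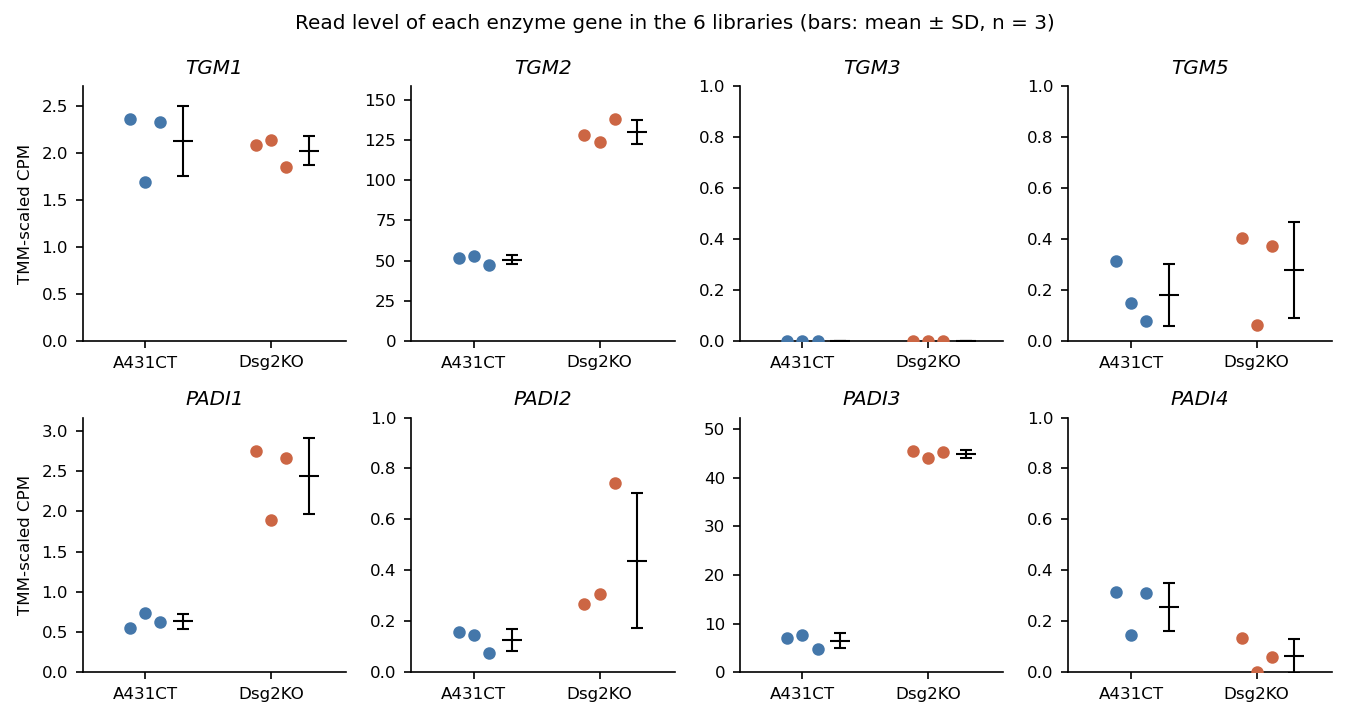
Each panel plots one gene, with its level in TMM-scaled CPM on the vertical axis for the 3 A431CT and 3 Dsg2KO libraries (points) and the mean ± SD (bars, n = 3). TGM2, PADI1, PADI2 and PADI3 were higher in each Dsg2KO library than in every A431CT library, PADI4 was lower, TGM1 and TGM5 overlapped, and TGM3 was at 0.

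TGM2, on the minus strand of chromosome 20 (GRCh38, chr20:38127385-38166578), had 656, 715 and 612 counts in the A431CT libraries and 1913, 2025 and 2233 counts in the Dsg2KO libraries. Scaled, this was 51.6, 52.7 and 47.4 CPM against 128, 124 and 138 CPM. Every Dsg2KO library thus lay at least 2.35-fold above the highest A431CT library. The mean was 50.6 ± 2.78 CPM in A431CT and 130.1 ± 7.25 CPM in Dsg2KO cells (SD, n = 3), a log2 fold change of 1.36 (SE 0.06), or 2.57-fold. Replicates varied by 5.49% of the mean in A431CT and 5.57% in Dsg2KO cells, where counting alone gives 3.89% and 2.21%. The 3′ end of TGM2 overlaps that of RPRD1B on the opposite strand, and how the strand was treated in counting is not given in the sources used here, so reads from the shared stretch cannot be told apart. RPRD1B, a regulator of RNA polymerase II phosphorylation, was at 101 ± 1.67 CPM in A431CT and 93.0 ± 4.41 CPM in Dsg2KO cells (log2 fold change -0.11, SE 0.05, adjusted p = 0.0881, edgeR). Of the 7944 different stretches of 50 bases in the annotated TGM2 transcripts, 4.66% also occur in transcripts of other genes, those of RPRD1B included.

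TGM1, the membrane-anchored keratinocyte enzyme (minus strand, chr14:24249114-24264432), had 30, 23 and 30 counts in A431CT and 31, 35 and 30 counts in Dsg2KO libraries. Its level was 2.13 ± 0.374 CPM in A431CT and 2.03 ± 0.151 CPM in Dsg2KO cells (SD, n = 3, log2 fold change -0.07, SE 0.27), and the conditions overlapped. With so few reads, the 95% interval of the ratio of Dsg2KO to A431CT counts per library size ran from 0.705 to 1.30, which covers counting error only. TGM5, an epidermal enzyme (minus strand, chr15:43232590-43266928), had 4, 2 and 1 counts in A431CT and 6, 1 and 6 counts in Dsg2KO libraries. Its ratio of 1.53 had an interval from 0.569 to 4.54, so no difference was detectable at this depth. TGM3, the enzyme of hair and upper epidermis (plus strand, chr20:2296001-2341079), had 0 counts in all 6 libraries. By counting alone this allows at most between 0.184 and 0.236 CPM per library. For TGM3 the count is uncertain, because 94.7% of its 50-base stretches also occur in the transcripts of an overlapping gene without a symbol, and reads that match several genes can be lost or moved in counting. None of the 8 genes shared such a stretch with another of the 8.

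PADI3, the enzyme that prepares filaggrin and trichohyalin for their processing (plus strand, chr1:17249098-17284233), showed the widest gap of the 8 genes on the CPM scale relative to its A431CT level. It had 91, 104 and 62 counts in A431CT libraries and 679, 720 and 732 counts in Dsg2KO libraries, or 7.16, 7.67 and 4.81 CPM against 45.6, 44.0 and 45.3 CPM. The lowest Dsg2KO library lay 5.74-fold above the highest A431CT library. Its mean was 6.54 ± 1.53 CPM in A431CT and 45.0 ± 0.802 CPM in Dsg2KO cells (SD, n = 3, log2 fold change 2.78, SE 0.11), or 6.85-fold. In A431CT cells the libraries spread by 23.3% of their mean, with the replicate 3 library lowest, where counting gives 10.8%. In Dsg2KO cells they spread by 1.78%, below the 3.76% that counting gives. None of its 50-base stretches occurs in another gene's transcripts.

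PADI1, an epidermal deiminase (plus strand, chr1:17205128-17246007), had 7, 10 and 8 counts in A431CT and 41, 31 and 43 counts in Dsg2KO libraries. The levels of 0.551, 0.737 and 0.620 CPM lay below those of 2.75, 1.90 and 2.66 CPM without overlap, and the mean was 0.636 ± 0.0944 CPM in A431CT and 2.44 ± 0.469 CPM in Dsg2KO cells (SD, n = 3, log2 fold change 1.92, SE 0.34). The 95% interval of the ratio, 3.80, ran from 2.45 to 6.11. PADI2 (minus strand, chr1:17066761-17119451) had 2, 2 and 1 counts in A431CT and 4, 5 and 12 counts in Dsg2KO libraries. All 3 of its Dsg2KO libraries were above all 3 A431CT libraries, and the ratio of 3.47 had an interval from 1.27 to 11.8. PADI4 (plus strand, chr1:17308195-17364004) went the other way, with 4, 2 and 4 counts in A431CT and 2, 0 and 1 counts in Dsg2KO libraries, a ratio of 0.248 with an interval from 0.0438 to 0.962. At these levels the intervals cover counting error only, and neither gene passed the low-count filter. Of the 4 genes that passed it, 3 (TGM2, PADI1 and PADI3) had every Dsg2KO library above every A431CT library and 0 had every one below. Among all tested genes 21.2% lay above in this way and 21.4% below, and nothing is read from this for the chosen genes.

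The PADI genes lie side by side on chromosome 1, so these differing values came from one cluster. From PADI2 to PADI6, the oocyte member of the family, the cluster spans 335 kb. PADI2 is on the minus strand and lies 85.7 kb from PADI1, while PADI1, PADI3, PADI4 and PADI6 follow on the plus strand. Only 3.09 kb separate the end of PADI1 from the start of PADI3, the pair with the higher levels, and 24.0 kb separate PADI3 from PADI4. PADI6 had 1 count in 1 Dsg2KO library and 0 in the other 5 libraries. RefSeq promoters were at hand for 5 of the 8 genes, TGM3, TGM5, PADI1, PADI2 and PADI4. Those of the 3 PADI genes are shown because the counts of these neighbours differed in direction, although PADI2 and PADI4 were too low to be tested. Each is the 250 bases before the start in GRCh38.p14, written 5′ to 3′ on the strand of the gene, with matches to the searched motifs in capitals. They lie at chr1:17204878-17205127 on the plus strand for PADI1, chr1:17119452-17119701 on the minus strand for PADI2 and chr1:17307947-17308196 on the plus strand for PADI4.
PADI1: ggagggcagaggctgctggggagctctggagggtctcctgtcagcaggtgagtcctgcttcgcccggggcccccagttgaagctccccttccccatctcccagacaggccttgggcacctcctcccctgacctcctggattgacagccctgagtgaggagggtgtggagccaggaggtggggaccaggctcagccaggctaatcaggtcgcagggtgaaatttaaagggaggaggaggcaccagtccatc
PADI2: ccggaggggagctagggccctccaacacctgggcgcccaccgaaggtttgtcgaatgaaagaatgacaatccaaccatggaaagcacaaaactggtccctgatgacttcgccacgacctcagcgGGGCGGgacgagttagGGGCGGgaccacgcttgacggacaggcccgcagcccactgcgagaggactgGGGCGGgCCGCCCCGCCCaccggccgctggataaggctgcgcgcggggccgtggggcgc
PADI4: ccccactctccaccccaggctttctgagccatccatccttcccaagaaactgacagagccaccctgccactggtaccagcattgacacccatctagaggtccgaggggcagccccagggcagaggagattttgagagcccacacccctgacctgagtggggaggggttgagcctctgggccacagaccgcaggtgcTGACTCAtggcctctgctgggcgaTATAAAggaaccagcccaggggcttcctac

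Both strands were searched for 4 motifs. The AP-1 site was spelled TGANTCA, and the GC box, which Sp factors bind, was spelled GGGCGG. The core promoter motif was spelled TATAAA and is called the TATA motif, and the NF-κB site was searched for by its consensus. The PADI2 sequence held 5 GC boxes, whose first bases lie 126, 110, 59, 52 and 47 bases before the start, and the last 2 of them overlap. The PADI4 sequence held 1 AP-1 site at 54 and 1 TATA motif at 30 bases before the start, without overlap. None of the 4 motifs matched in the sequences of PADI1 and TGM5. That of TGM3 held 4 TATA matches, the one nearest to the start 30 bases before it. The NF-κB site matched in none of the 5, but the promoters of TGM1, TGM2 and PADI3 were not at hand and were not searched. Among 35116 RefSeq promoters of the same length, 6.57% held the AP-1 site, 42.6% the GC box, 10.7% the TATA motif and 10.0% the NF-κB site. GC content was 64.0% for PADI1, 68.0% for PADI2 and 61.2% for PADI4, beside a median of 58.0% over all promoters. These matches describe the letters of the windows and not binding.

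Within each family the same gene dominated in both conditions, and its share was higher in each Dsg2KO library than in every A431CT library. TGM2 and PADI3 were chosen for their rise, which raises their share of the family, so nothing is read from the higher shares. Of the reads on the 4 transglutaminase genes, TGM2 held 95.6 ± 0.865% in A431CT and 98.3 ± 0.155% in Dsg2KO libraries (SD, n = 3). The lowest Dsg2KO library, at 98.1% (95% exact binomial interval 97.4 to 98.7%), lay above the highest A431CT library, at 96.6% (95.1 to 97.8%), although these intervals, which cover counting error only, overlap. TGM1 held most of the rest, with 4.04 ± 0.823% in A431CT and 1.54 ± 0.194% in Dsg2KO libraries, although its level overlapped between the conditions. PADI3 held 86.1 ± 2.99% of the reads on the 4 deiminase genes in A431CT and 93.9 ± 1.21% in Dsg2KO libraries. The share of PADI1 was 8.62 ± 1.97% in A431CT and 5.07 ± 0.843% in Dsg2KO libraries, so its level was higher and its share of the family lower. PADI4 went from 3.62 ± 1.83% to 0.134 ± 0.138%. This rests on 4, 2 and 4 counts in A431CT and 2, 0 and 1 counts in Dsg2KO libraries. The family total was also larger, with 75 to 118 counts in A431CT and 726 to 788 counts in Dsg2KO libraries, mostly from PADI3.

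**Figure D2:**
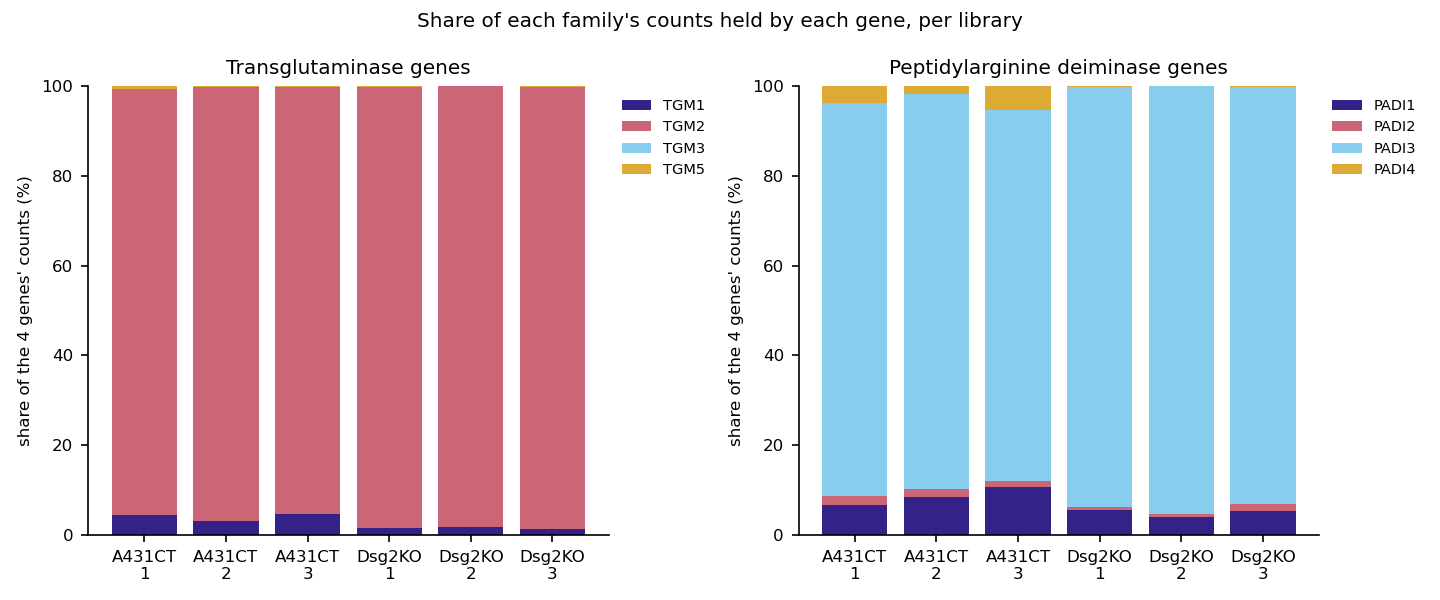
Stacked bars give, for each library, the share in percent of the counts of the 4 transglutaminase genes (left) and of the 4 deiminase genes (right) that fell on each gene. TGM2 held between 95.1% and 98.4% of its family in the 6 libraries, and PADI3 between 82.7% and 95.2%.

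To compare levels between genes, CPM were divided by the length of each gene's exons. Per kb, TGM2 was the highest of the 8 genes in both conditions, at 6.36 ± 0.349 CPM per kb in A431CT and 16.4 ± 0.912 CPM per kb in Dsg2KO cells (SD, n = 3). PADI3 came next, at 2.05 ± 0.479 CPM per kb in A431CT and 14.1 ± 0.251 CPM per kb in Dsg2KO cells. Among the 12258 tested genes with an annotated length, PADI3 stood above 23.9% in A431CT cells and above 72.2% in Dsg2KO cells. The same percentages for TGM2 were 50.6% and 75.6%. Both genes were chosen for their rise, so nothing is read from these changes in rank. TGM1 followed at 0.569 ± 0.100 CPM per kb in A431CT and 0.542 ± 0.0404 CPM per kb in Dsg2KO cells. PADI1, at 0.130 ± 0.0193 CPM per kb, was well below TGM1 in A431CT cells, but at 0.497 ± 0.0957 CPM per kb it did not differ from TGM1 beyond their spread in Dsg2KO cells. Below these, the 3 genes with counts lay at 0.0866 (PADI4), 0.0488 (TGM5) and 0.0212 (PADI2) CPM per kb in A431CT cells, where the libraries of each overlap those of the next. In Dsg2KO cells the values of the same genes were 0.0220, 0.0755 and 0.0731 CPM per kb, and none of the 3 was apart from the next.

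**Figure D3:**
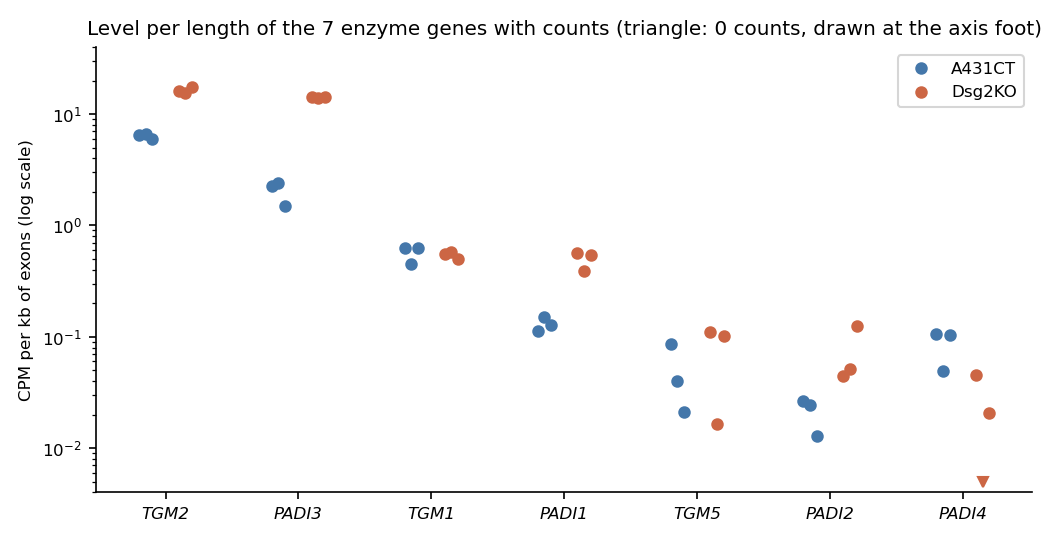
The vertical axis gives CPM per kb of exons on a log scale for the 7 genes with counts, ordered by their mean in Dsg2KO cells, with 1 point per library. TGM2 and PADI3 stood between 14.1 and 16.4 CPM per kb on average in Dsg2KO cells, and PADI1 moved from 0.130 CPM per kb to the level of TGM1.

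The genes around PADI3 and TGM2 outside the PADI family had lower medians than all tested genes. Distances in this and the next paragraph run between the lowest annotated coordinates of the genes, whatever the strand. Within 1 Mb of the start of PADI3, 9 other genes outside the family were tested. Of these, 0 were called higher by edgeR and 2 lower, with a median log2 fold change of -0.27. Within 5 Mb, 0 of 61 were called higher and 11 lower, with a median of -0.32 and with 8 above 0, where over all tested genes 2.99% were called higher and 3.03% lower. The median over all tested genes was -0.0048. On the side of PADI2, SDHB, a subunit of succinate dehydrogenase, was at 33.2 ± 2.06 CPM in A431CT and 38.3 ± 4.01 CPM in Dsg2KO cells (log2 fold change 0.21, SE 0.08, adjusted p = 0.0709, edgeR), and ATP13A2, a lysosomal transporter, had a log2 fold change of -0.27 (SE 0.07, adjusted p = 0.0120, edgeR). Beyond PADI6, RCC2, a mitotic regulator, went from 494 ± 8.83 to 393 ± 20.4 CPM (log2 fold change -0.33, SE 0.04, adjusted p = 2.38e-05, edgeR), which is under the fold change minimum. ARHGEF10L, the next gene, had a log2 fold change of -0.35 (SE 0.15, adjusted p = 0.11, edgeR).

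Around TGM2, 0 of 13 tested genes within 1 Mb were called in either direction, with log2 fold changes from -0.42 to 0.67 and a median of -0.21. Within 5 Mb, 0 of 67 were called higher and 3 lower, with a median of -0.19. No tested gene within 5 Mb of either gene outside the PADI family reached the log2 fold change of that gene. Both genes were chosen for their strong rise, so nothing is read from this. On the other side of TGM2 from RPRD1B, KIAA1755 had 15, 25 and 10 counts in A431CT and 32, 23 and 41 counts in Dsg2KO libraries (log2 fold change 0.67, SE 0.36, adjusted p = 0.189, edgeR), and its conditions overlapped. The surroundings of the other transglutaminase genes had medians near that of all genes within 1 Mb. They were 0.06 over 38 genes for TGM1, -0.01 over 20 genes for TGM3 and 0.07 over 27 genes for TGM5. Called higher were 2 genes around TGM1, IRF9 among them (log2 fold change 2.15), 1 around TGM3 and 0 around TGM5. In each of these windows 0 were called lower, beside 2.99% higher and 3.03% lower over all tested genes. DNA copy number was not measured, and its part in the lower medians around PADI3 and TGM2 was not tested.

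**Figure D4:**
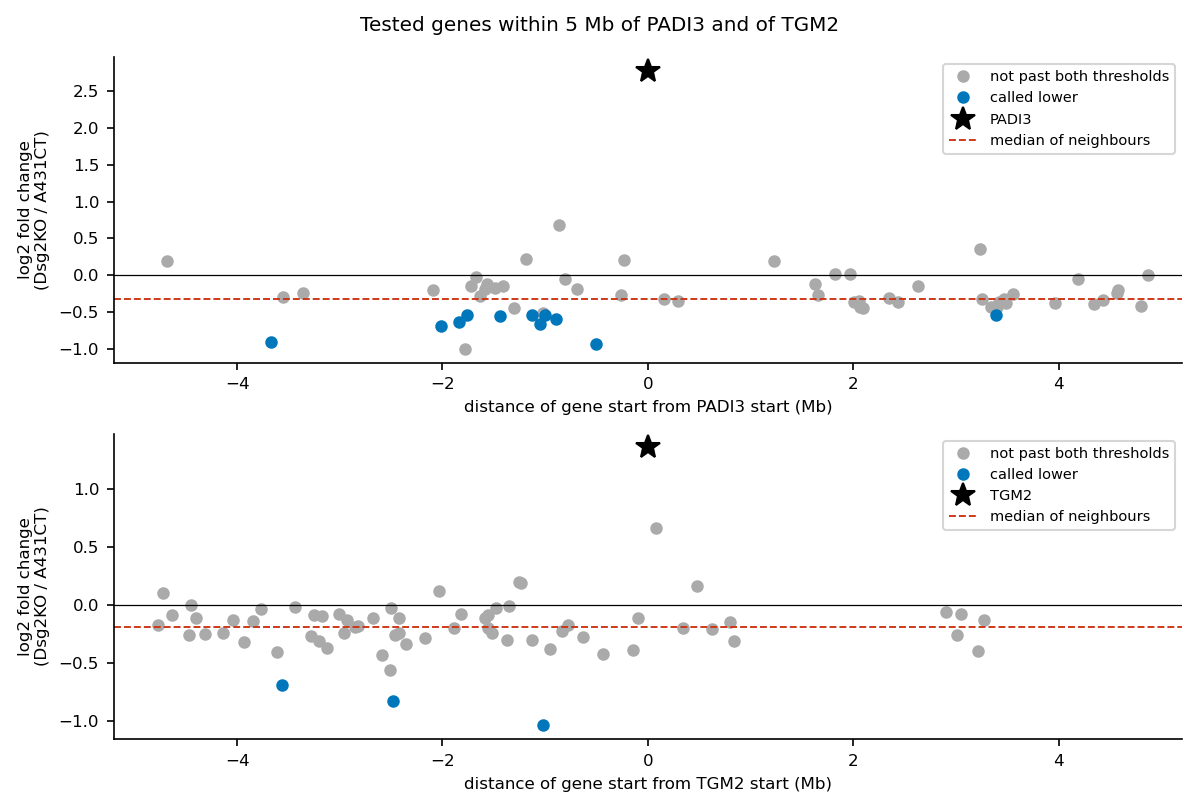
Each point is a tested gene within 5 Mb of PADI3 (top) or TGM2 (bottom), with the other PADI genes left out. The horizontal axis gives the distance of its start in Mb, taken as the lowest annotated coordinate whatever the strand. The vertical axis gives its log2 fold change, with the dashed line at the median. PADI3 at 2.78 and TGM2 at 1.36, both chosen for their rise, stand above neighbours whose medians are -0.32 and -0.19.

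The profile over the 6 libraries was compared with those of all other tested genes by the root mean square difference of log2 CPM, each profile centred on its own mean, where 0 is an identical shape. Closest to TGM2 were ECM2, an extracellular matrix protein gene, with a difference of 0.0731, VGLL1, a TEAD cofactor gene, with 0.0952, and NEO1, the gene of the receptor neogenin, with 0.0976. ECM2 went from 2.02 ± 0.0955 to 4.98 ± 0.367 CPM, VGLL1 from 19.7 ± 0.367 to 46.1 ± 1.17 CPM and NEO1 from 24.3 ± 2.00 to 57.4 ± 1.95 CPM. Their log2 fold changes of 1.30, 1.23 and 1.24 were each a little under that of TGM2. Closest to PADI3 were PXYLP1, a xylose phosphatase of proteoglycan synthesis, at 0.117, NOL4L at 0.301 and TMEM98 at 0.319. PXYLP1 went from 1.53 ± 0.318 to 10.0 ± 1.04 CPM with a log2 fold change of 2.71, so it is the only one of the 3 whose shape was about as near as those around TGM2. These genes were picked for their likeness over the same 6 libraries, so no test is given.

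The counts of called genes in the following lists are read beside the 2.99% called higher and 3.03% called lower over all tested genes. Of 41 cornified envelope precursors that transglutaminases cross-link or that lie in the envelope, 40 were in the count table, 28 of these had 3 counts or fewer in every library and 10 were tested. Among these 10, 0 were called higher and 1 lower by edgeR, beside 6.03% of all tested genes in either direction, and the median log2 fold change was 0.13. No difference from these shares is read from the few tested genes of this list or of those that follow. The gene called lower was CSTA, the protease inhibitor cystatin A, which had 26.7, 29.0 and 29.1 CPM in A431CT and 15.8, 17.8 and 16.6 CPM in Dsg2KO libraries (log2 fold change -0.76, SE 0.08, adjusted p = 8.1e-06, edgeR). The 3 most abundant precursors of the list stayed under the fold change minimum. ANXA1, annexin A1, went from 207 to 185 CPM on average (log2 fold change -0.16, SE 0.04, adjusted p = 0.0124, edgeR), whereas S100A11 and S100A10 had log2 fold changes of 0.13 and 0.07 with overlapping libraries. Involucrin (IVL), the classical TGM1 substrate, was singled out after its values were seen. It was at 8.21 ± 1.05 CPM in A431CT and 10.5 ± 2.00 CPM in Dsg2KO cells (log2 fold change 0.36, SE 0.16, adjusted p = 0.11, edgeR).

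Of 13 genes of proteins known to be citrullinated, 7 were tested. In either direction edgeR called 0 of them (6.03% over all tested genes), and DESeq2 also called 0. For 3 of the 7 both the unadjusted and the adjusted p were under 0.05 with edgeR, so these missed only the fold change minimum. Over all genes, 3802 of 12857 had an adjusted p under 0.05. The median log2 fold change of the 7 was 0.10. ENO1, the glycolytic enzyme enolase, was the most abundant, at 1782 ± 19.7 CPM in A431CT and 1488 ± 84.8 CPM in Dsg2KO cells (log2 fold change -0.26, SE 0.04, adjusted p = 7.6e-05, edgeR), under the fold change minimum. NPM1, a nucleolar protein, and MBP, myelin basic protein, had log2 fold changes of -0.07 and 0.16. The PADI3 substrates filaggrin and trichohyalin, singled out after their values were seen, were present at a few CPM. FLG was at 3.93 ± 1.25 CPM in A431CT and 4.89 ± 0.640 CPM in Dsg2KO cells (log2 fold change 0.32, SE 0.24, adjusted p = 0.344, edgeR). TCHH was at 2.95 ± 0.590 CPM in A431CT and 3.16 ± 0.142 CPM in Dsg2KO cells (log2 fold change 0.10, SE 0.24, adjusted p = 0.789, edgeR), and the conditions overlapped for both genes.

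Of 16 matrix partners and substrates of TGM2, 10 were tested, 0 were called higher (2.99% over all tested genes) and 1 lower (3.03%), and their median log2 fold change was 0.02. SPP1, the gene of osteopontin, was the one called, with 6.21, 5.16 and 3.72 CPM in A431CT and 3.29, 1.28 and 2.23 CPM in Dsg2KO libraries (log2 fold change -1.16, SE 0.30, adjusted p = 0.00935, edgeR). Without the first A431CT library it was not called (log2 fold change -0.98, adjusted p = 0.0504, edgeR). THBS1, thrombospondin 1, was at 809 ± 129 CPM in A431CT and 586 ± 65.2 CPM in Dsg2KO cells (log2 fold change -0.47, SE 0.09, adjusted p = 0.00111, edgeR), just under the fold change minimum. ITGB1, the integrin chain that holds cell-surface TGM2, had a log2 fold change of 0.13 (SE 0.03, adjusted p = 0.00854, edgeR), and SDC4, a syndecan that binds TGM2, had -0.0030 (SE 0.04). Fibronectin, the main matrix ligand of TGM2, was singled out after its values were seen. FN1 had 25, 15 and 10 counts in A431CT and 35, 35 and 40 counts in Dsg2KO libraries, with all 3 Dsg2KO libraries higher, a log2 fold change of 0.86 (SE 0.34) and an adjusted p of 0.0702 with edgeR. It was called without the first A431CT library, which held its highest A431CT count (log2 fold change 1.29, adjusted p = 0.0205, edgeR). It was also called when only genes with at least 10 counts in every library were tested (0.86, adjusted p = 0.0407, edgeR). Under the main setting and all other alternatives FN1 was not called. COL1A1, likewise singled out, had a log2 fold change of 0.05 (SE 0.31) with overlapping libraries, and COL3A1 was too low to test.

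Of 28 genes of suprabasal differentiation and the skin barrier, 16 were tested and edgeR called 0 in either direction (6.03% over all tested genes), as did DESeq2. For 4 of the 16 both the unadjusted and the adjusted p were under 0.05 with edgeR, beside 3802 of all 12857 tested genes for the adjusted p. These 4 missed only the fold change minimum. The median log2 fold change of the 16 was 0.0047. CALML3, a calmodulin-like protein of differentiating epithelium, went from 177 ± 10.6 to 206 ± 13.3 CPM (log2 fold change 0.22, SE 0.05, adjusted p = 0.00589, edgeR), and KRT10, the suprabasal keratin, from 112 ± 3.93 to 85.2 ± 6.53 CPM (log2 fold change -0.40, SE 0.06, adjusted p = 7.8e-05, edgeR). Both stayed under the fold change minimum, as did the protease gene KLK5 with a log2 fold change of 0.08. TGM2 is a classical target of retinoic acid, and of 13 retinoic acid targets and receptors 9 were tested, 1 was called higher (2.99% over all tested genes) and 0 lower (3.03%), with a median of 0.14. The gene called was PLAAT4, also known as RARRES3, with 6.13, 6.71 and 6.28 CPM in A431CT and 11.8, 11.9 and 7.85 CPM in Dsg2KO libraries (log2 fold change 0.72, SE 0.17, adjusted p = 0.0049, edgeR). The receptor genes RARG and RARA and the reductase gene DHRS3 had log2 fold changes of 0.14, -0.08 and 0.19.

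PADI3 and TCHH work together in the hair follicle, and of 23 genes of the inner root sheath and hair shaft 6 were tested, 0 called higher (2.99% over all tested genes) and 1 lower (3.03%), with a median of -0.07. The gene called lower was the hair keratin KRT31, which had 37, 36 and 34 counts in A431CT and 3, 4 and 3 counts in Dsg2KO libraries (log2 fold change -3.64, SE 0.39, adjusted p = 6.5e-06, edgeR). It thus went against the direction of PADI3. VDR, the vitamin D receptor, HOXC13 and GATA3, transcription factors of the hair shaft and root sheath, had log2 fold changes of 0.27, -0.17 and 0.02. The 7 other family genes in the table, TGM4, TGM6, TGM7, F13A1, F13B, EPB42 and PADI6, were too low to test. None of them had more than 6 counts in any library, and 5 of them had 3 counts or fewer throughout.

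**Figure D5:**
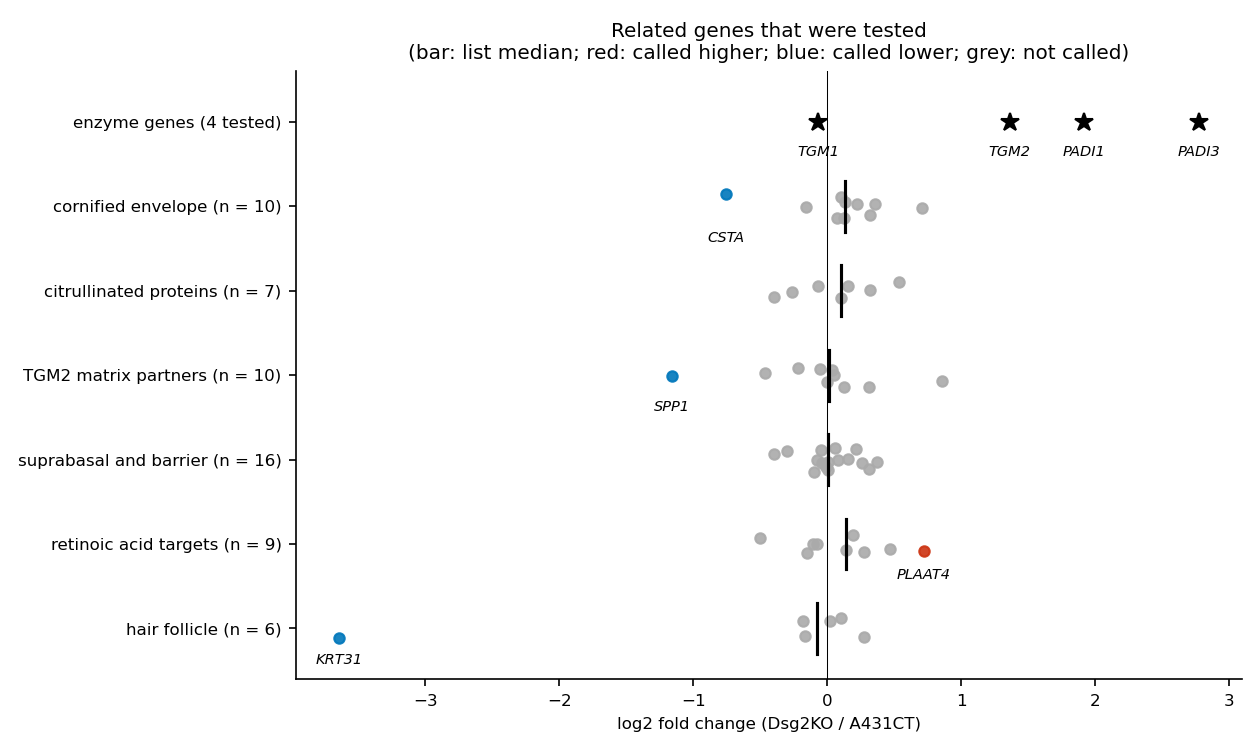
The horizontal axis gives the log2 fold change of Dsg2KO over A431CT for the 4 tested enzyme genes (stars) and for the tested genes of 6 related lists (points), with a bar at each list's median. PADI3, PADI1 and TGM2 lie at 2.78, 1.92 and 1.36, while the list medians lie between -0.07 and 0.14 and the called list genes are CSTA, SPP1, PLAAT4 and KRT31.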

How the data were processed

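The authors trimmed paired-end reads of polyA RNA, aligned them to GRCh38 (hg38) and used CLC Genomics Workbench to count reads for each gene. The deposited table holds raw counts per gene symbol, without normalization, for all 6 libraries, and 0 of its columns of samples were left unused. The annotation and strand setting are not given in the sources used here.

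The counts were scaled with TMM factors and tested with the quasi-likelihood F test of edgeR 4.0.16 (R 4.3.3) after filterByExpr (minimum count 10, minimum total 15), with Benjamini-Hochberg adjustment over 12857 genes. A gene was called at an adjusted p under 0.05 with a log2 fold change of 0.5 or more in size. The fit was tested on simulated data whose fold changes were all larger than this minimum, so the test does not bear on calls near it. The biological coefficient of variation was 4.79%. No 2 replicates agreed within counting noise, as chi-square values per degree of freedom lay from 2.64 to 4.14. The paper calls the libraries of a condition biological replicates, and p-values measure the spread between them within 1 control and 1 knockout line. Samples with the same replicate number had residual correlations of -0.0027, 0.0136 and 0.0539 and were not paired.

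Intervals of ratios are 95% exact conditional Poisson intervals and cover counting error only. Genes were placed with GENCODE 44 on GRCh38, which matched 19491 of the 21462 symbols. Exon lengths are unions over transcripts. Promoters are from RefSeq. The 8 genes and the gene lists were chosen with earlier results of these data known. Named genes are the 8 genes, the called genes of each list and its 3 most abundant ones, the neighbours, and the 3 most similar profiles for TGM2 and PADI3. Others are named as singled out, among them the counted markers and family genes. Alternatives were RLE size factors, total counts, 2 other low-count filters, DESeq2 1.42.0, a replicate block, other fold change minimums and leaving out each library in turn. The authors' TPM values and the other assays of the study were not analysed here.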

Additional observations from a re-analysis of the deposited data

How the results depend on the processing

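The log2 fold changes of the 4 tested enzyme genes moved little under the alternatives, from 1.32 to 1.40 for TGM2, from 2.60 to 2.91 for PADI3, from 1.82 to 2.07 for PADI1 and from -0.21 to 0.01 for TGM1. PADI1 has no value with at least 10 counts in every library. Without a low-count filter 6 of the 8 genes reached an absolute log2 fold change of 0.5 in place of 3, since PADI2, PADI4 and TGM5 then entered with 1.73, -1.86 and 0.61. The 775 called genes became 3802 without a fold change minimum and 250 with a minimum of 1. With a replicate block 769 were called, and the block changed no call of a list gene. Without a fold change minimum the called genes were 4 of 10 tested TGM2 partners, 3 of 7 citrullinated proteins and 4 of 10 cornified envelope genes. They were also 2 of 6 hair follicle, 3 of 9 retinoic acid and 4 of 16 suprabasal genes. Over all tested genes 3802 of 12857 were called at this setting, and no difference from this share is read from the lists. With a minimum of 1 the called genes were 0 for the cornified envelope and 0 for the retinoic acid targets. With at least 10 counts in every library they were 2 TGM2 partners (FN1 and SPP1), 2 cornified envelope genes (CSTA and CDSN) and 0 hair follicle genes, since KRT31 was filtered out, and without a filter SPINK5 became 1 suprabasal call. Leaving out each library in turn gave 1 to 3 TGM2 partners, 0 to 1 citrullinated proteins and 1 to 2 cornified envelope genes. Without the second A431CT library FBN1 and THBS1 joined SPP1, without the third Dsg2KO library THBS1 did, without the first A431CT library FN1 replaced SPP1 and CXCL8 was called, and without the first Dsg2KO library IVL joined CSTA. The cause of these changes was not tested. The other 154 values lay within 1.5 times the reported count or within the spread between replicates. Depth limits TGM5, PADI2 and PADI4, whose intervals span several-fold ranges. For TGM3 depth leaves only an upper limit by counting, and the stretches shared with an overlapping gene make even this uncertain.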
